A study of Mus musculus with 6 samples.

Results

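The genes described are 37 genes of mitosis, chosen by name from 34797 gene names and unnamed probes on a whole-genome mouse array. They cover the spindle, the kinetochore, the spindle checkpoint and cytokinesis. Each gene is represented by its brightest probe, taken as the highest mean log2 signal over the 6 arrays. All 37 of 37 were on the array. Satellite cells, the resident stem cells of skeletal muscle, were compared between mice whose satellite cells lack Rpt3 and control mice. Rpt3, the protein of the gene Psmc4, is an ATPase subunit of the proteasome that unfolds substrates for degradation. The mice were C57BL6, with 3 knockout and 3 control animals and 1 array per mouse. The age of the mice, the Cre driver behind the knockout, the deleted part of Psmc4 and any allele that the controls carry are not given in the sources used here.

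Mitosis runs on transcripts that are made in a burst: their genes are silent in resting cells and active in late S, G2 and M phase, so their RNA marks dividing cells. The products build the spindle, attach chromosomes to it at the kinetochore, hold anaphase back until every chromosome is attached, and then divide the cytoplasm. Many of the encoded proteins are destroyed by the proteasome as cells leave mitosis. Satellite cells in resting adult muscle are quiescent and enter the cycle after injury. RNA was measured in bulk, so fewer dividing cells and less RNA per cell cannot be told apart.

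Promoters of such genes are known to carry the cell cycle homology region, or CHR (TTTGAA), which binds the complexes that silence them at rest and activate them in G2, often with NF-Y boxes (CCAAT) upstream. The RefSeq promoter windows of build GRCm38.p6, from 250 bases before to 50 bases after a transcript start, held 32 of the 37 genes. Aurkb, Incenp, Tpx2, Kif20a and Fam64a had no entry. On either strand, the CHR letters stood in 24 of these 32 genes, or 75%, against 20.2% of 27025 genes with a window. Within 60 bases before and 50 after the start, a span chosen after the positions were seen, they stood in 21 of 32, or 65.6%, against 6.36% of all genes. The CCAAT letters stood in 71.9% of the 32 genes and 41.1% of all. A match describes the letters and shows no binding. The 160 bases from 130 before the start onward are printed for the 5 tested genes with the smallest unadjusted p that had a window, and for Hmmr and Cdca8, picked afterwards for log2 differences near 0. All are 5′ to 3′ on the gene's strand, with CHR and CCAAT matches of either strand in capitals. In Cdca8 the last CHR and CCAAT matches overlap.
Nusap1, chr2:119618168-119618327 (plus strand): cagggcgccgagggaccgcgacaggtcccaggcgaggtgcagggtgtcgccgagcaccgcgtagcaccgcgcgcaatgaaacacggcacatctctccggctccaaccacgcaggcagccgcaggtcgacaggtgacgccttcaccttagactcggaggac
Birc5, chr11:117849107-117849266 (plus strand): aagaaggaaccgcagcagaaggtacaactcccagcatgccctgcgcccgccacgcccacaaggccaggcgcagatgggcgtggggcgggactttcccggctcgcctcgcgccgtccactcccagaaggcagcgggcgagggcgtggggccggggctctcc
Prc1, chr7:80294321-80294480 (plus strand): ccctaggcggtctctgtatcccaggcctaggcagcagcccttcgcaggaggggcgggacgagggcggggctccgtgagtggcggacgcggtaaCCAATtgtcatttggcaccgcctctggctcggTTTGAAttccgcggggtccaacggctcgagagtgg
Mki67, chr7:135716350-135716509 (minus strand): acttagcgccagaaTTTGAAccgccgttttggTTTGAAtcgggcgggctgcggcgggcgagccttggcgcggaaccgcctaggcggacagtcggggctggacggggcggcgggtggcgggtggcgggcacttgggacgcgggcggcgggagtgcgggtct
Ect2, chr3:27153849-27154008 (minus strand): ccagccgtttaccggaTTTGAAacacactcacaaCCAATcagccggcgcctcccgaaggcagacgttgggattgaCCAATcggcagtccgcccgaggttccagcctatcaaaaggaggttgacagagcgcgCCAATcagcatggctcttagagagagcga
Hmmr, chr11:40733408-40733567 (minus strand): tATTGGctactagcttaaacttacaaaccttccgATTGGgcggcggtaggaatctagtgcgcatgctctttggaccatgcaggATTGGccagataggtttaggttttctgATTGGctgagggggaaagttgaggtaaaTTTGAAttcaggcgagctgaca
Cdca8, chr4:124936888-124937047 (minus strand): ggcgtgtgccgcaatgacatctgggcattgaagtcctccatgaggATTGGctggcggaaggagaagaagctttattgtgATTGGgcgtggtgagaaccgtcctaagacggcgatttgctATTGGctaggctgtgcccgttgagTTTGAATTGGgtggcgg
Motif matches stood in genes at both ends of the range of array values. Near the start, the CHR letters stood in 4 of the 7 genes with a window that were lower in the knockout at an unadjusted p under 0.05, and in 8 of the 11 other tested genes with one. Nusap1 and Birc5 held neither motif in their windows, while Hmmr and Cdca8 held both.

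**Figure D1:**
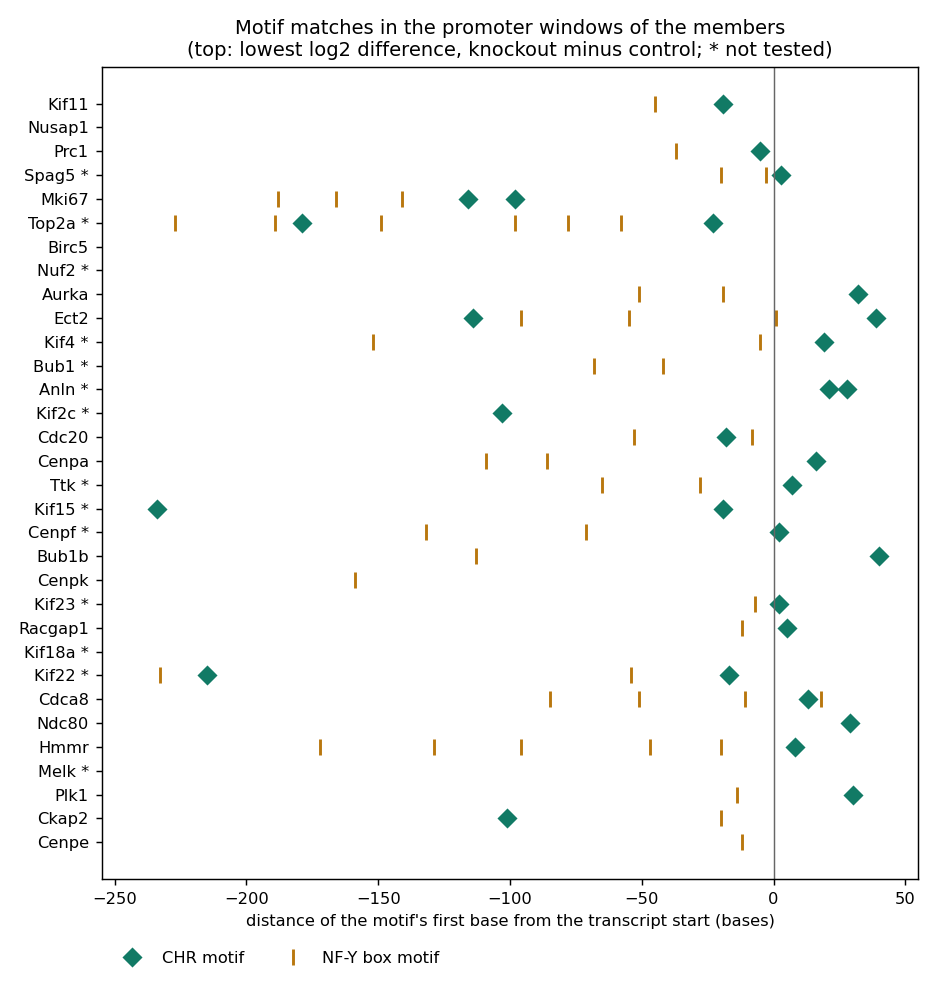
Positions of CHR motifs (diamonds) and NF-Y box motifs (ticks) in the promoter window of each of the 32 genes that had one, the first window where a gene had several; the x axis is the distance in bases from the transcript start, and genes are ordered by log2 difference, with the lowest at the top. CHR motifs gather close to the start in genes at both ends of the order.

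The signal is the scanner's background-corrected intensity, given as log2 relative to the 75th percentile of its array, so levels of different probes cannot be compared with each other. Psmc4 read 2.05, 2.07 and 1.54 on the knockout arrays and 2.93, 2.61 and 2.87 on the control arrays, a log2 difference of -0.92 ± 0.24 (SE) with no overlap and an adjusted p of 0.421. Its probe may lie outside the deleted part, so this checks the labels only in part. Between 51.7% and 57.9% of probes were well above background on 5 of the arrays, and 44.2% on knockout 3, which stood apart on the first principal component (29.6% of variance). The knockout arrays 1 and 2 lay in row 1 of the slide, and knockout 3 and all 3 controls in row 2. A fit with the slide row as a block therefore takes each difference from row 2, knockout 3 against the controls. Of 14 satellite cell markers, 11 to 13 were well above background on the knockout arrays and 14 on each control array. Of these markers, 11 were above it on every array, Pax7 and Itga7 on 2 knockout arrays, and Myf5 on no knockout array. All 8 markers of fibro-adipogenic cells, connective tissue progenitors of muscle, were above it on every array.

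None of the mitotic genes tested passed at an adjusted p of 0.05, and most of the 37 had lower knockout means. Of the 37 genes, 32 had a lower mean in the knockout and 5 a higher one, while 42% of all names had a lower mean. The median log2 difference was -0.86 over the 37 and 0.07 over all names. In 14 of the 37 every knockout array was below every control array, against 4% of all names, and in 0 every knockout array was above, against 5.35%. At an unadjusted p under 0.05 without a filter, 15 of 37 were lower, against 2.46% of all names. The genes were chosen with earlier results of these data known. These counts and those below are therefore descriptions and no independent test of the genes.

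Detection followed the same order. Of the 37 genes, 19, 14 and 16 were well above background on the knockout arrays, and 23, 24 and 28 on the control arrays. Every control array thus detected more of them than any knockout array. The share of all names detected was 65.2%, 59.8% and 52.6% on the knockout arrays and 61.6%, 60.6% and 60.9% on the controls, so that knockout 1 detected more of all names, and fewer mitotic genes, than each control. A signal too close to background is replaced by a surrogate value, which only tracks the array's noise. The genes stood on it 10, 13 and 14 times on the knockout arrays and 4, 3 and 3 times on the controls. Of all names, 16.2%, 19.6% and 24.8% stood on it on the knockout arrays and 18.1%, 19.0% and 18.3% on the controls, so it was also more frequent over all names on knockout 3.

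**Figure D2:**
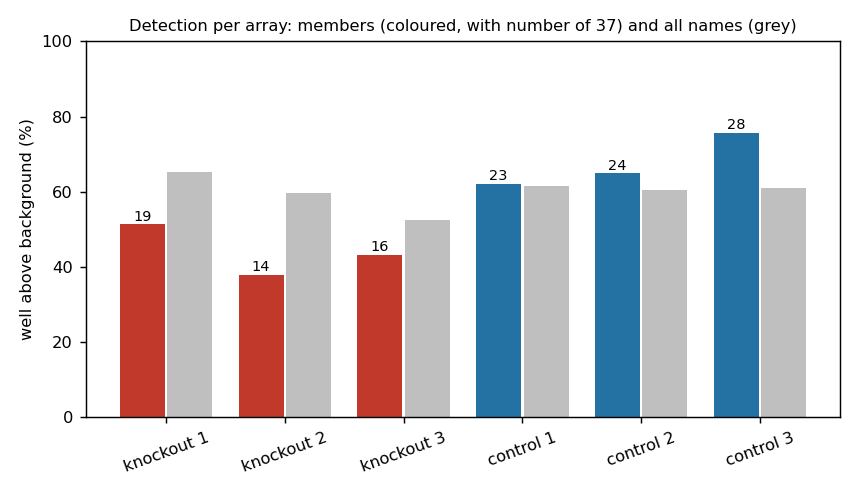
Percentage of the 37 mitotic genes (coloured bars, red for knockout and blue for control, with the number of genes above each) and of all gene names on the array (grey bars) that were well above background, for each of the 6 arrays. The mitotic share is 51.4% or lower on each knockout array and 62.2% or higher on each control array, while the grey bars of the groups overlap.

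Testing required a probe well above background on every array of the knockout or of the control group, which left 22 of the 37 genes among 19196 features. Of the 22, 12 were detected on all 6 arrays. The other 10 passed through the controls alone, a way of passing that favours genes that read lower in the knockout. Counts and medians over the 22 include these 10, so they cannot be read as an excess over all features. The test, limma's moderated test with Benjamini-Hochberg adjustment, called 0 of the 22 at an adjusted p of 0.05, as it called 0% of all features. The smallest adjusted p was 0.124 among the 22 and 0.0599 among all features. At an unadjusted p under 0.05, 11 of the 22 were lower, against 4.21% of all features, and 0 were higher, against 2.83%. In 9 the groups did not overlap with the knockout lower, against 5.61%, and in 0 with the knockout higher, against 5.08%. The median log2 difference of the 22 was -0.89, and 0.04 over all features. Over the 12 genes detected on all 6 arrays it was -0.17, with 9 of 12 means lower, while 43.7% of all 19196 features had a lower mean. In a fit of the features detected on all arrays, 2 of these 12, Birc5 and Ect2, were lower at an unadjusted p under 0.05, against 3.19%, and in the same number the groups did not overlap with the knockout lower, against 4.55%. With the background modelled by normexp, which compresses dim signals, the median of the 22 was -0.29.

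**Figure D3:**
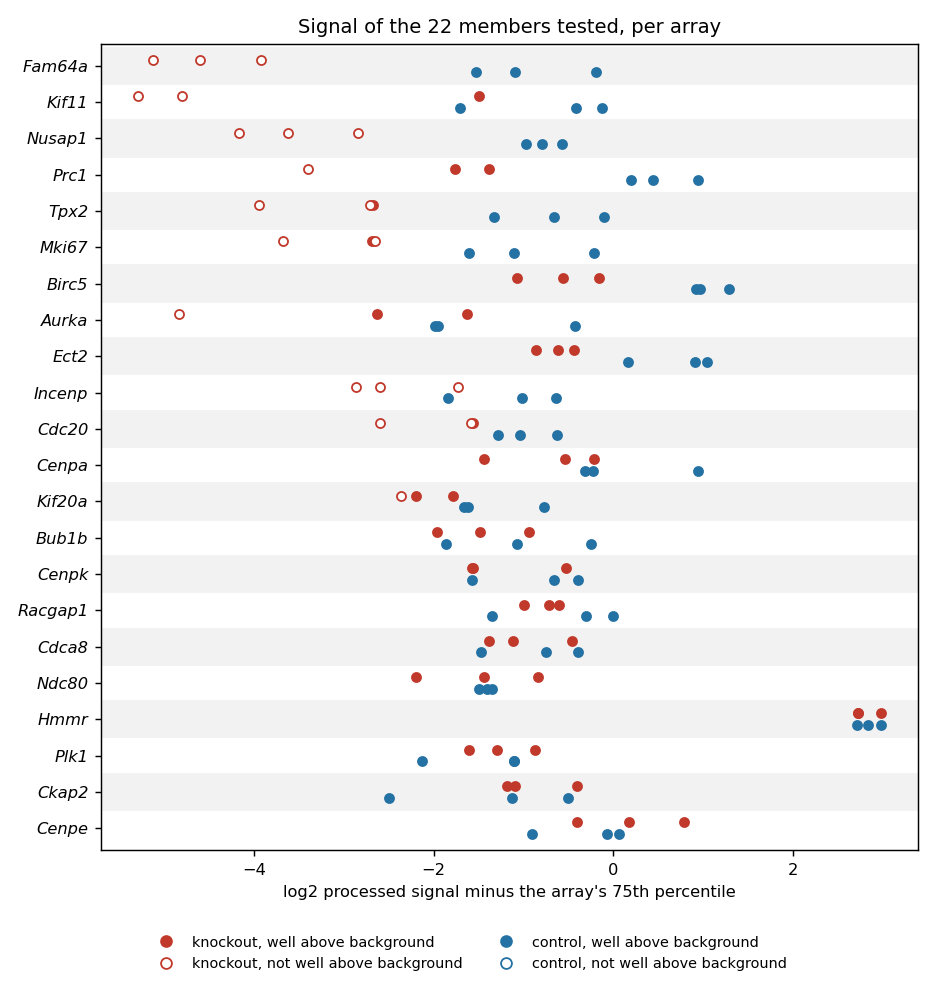
Log2 signal relative to the 75th percentile of the array (x axis) for the 22 tested genes, with knockout arrays in red above and control arrays in blue below each line; filled points were well above background and open points were not. All open points are knockout arrays, and the groups separate in 9 genes, among them Fam64a, Nusap1, Prc1, Tpx2, Birc5 and Ect2.

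Chromosome structure was represented by Mki67 and Top2a. Mki67 encodes Ki-67, the standard marker of proliferating cells, which coats mitotic chromosomes. It read -2.69, -2.65 and -3.68 on the knockout arrays and -1.11, -1.61 and -0.22 on the controls. The groups did not overlap, and the log2 difference was -2.03 ± 0.42 (SE) with an adjusted p of 0.333. Only knockout 1 was above background in the knockout, so the size of the difference rests on dim signals. The other Mki67 probe gave a log2 difference of -1.87, also without overlap. Top2a encodes topoisomerase II alpha, which untangles sister DNA before anaphase. It was above background on controls 2 and 3 alone and so was not tested, with -3.74, -4.60 and -3.97 in the knockout and -2.72, -1.95 and -1.64 in the controls.

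Of the mitotic kinases and checkpoint genes, 4 were tested, with 3 lower means and 1 higher, and only Cdc20 was lower at an unadjusted p under 0.05. Plk1, the polo-like kinase that drives centrosome maturation and mitotic entry, was above background on all 6 arrays. Its values were -0.88, -1.60 and -1.30 in the knockout and -1.11, -1.10 and -2.13 in the controls, with overlap and a log2 difference of 0.19 ± 0.35 (SE). Bub1b encodes BubR1, which holds back the anaphase-promoting complex. Its 6 values also overlapped, with -0.94, -1.97 and -1.49 in the knockout and -0.25, -1.86 and -1.07 in the controls, a log2 difference of -0.41 ± 0.44 (SE). Aurka encodes Aurora A, the kinase of spindle poles. Its knockout values were -2.63, -4.83 and -1.63, the middle one a surrogate, and its controls read -1.99, -0.43 and -1.95. The log2 difference was -1.57 ± 0.80 (SE), -0.67 without knockout 2, and -0.17 in slide row 2, knockout 3 against the controls.

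Cdc20 is the activator that turns the anaphase-promoting complex on once the checkpoint is satisfied. It read -1.56, -2.60 and -1.58 in the knockout and -1.04, -0.63 and -1.28 in the controls. The groups stood apart by a small margin, with a log2 difference of -0.93 ± 0.34 (SE) and an adjusted p of 0.609. Of the knockout arrays, only knockout 1 was above background. Without knockout 2 the difference was -0.59. Fam64a, now named Pimreg, encodes a mitotic protein that interacts with the clathrin assembly protein CALM, and its probe lies on chr11:71860513-71860572 of mm9. On the controls it read -1.53, -0.19 and -1.10, all above background, while all 3 knockout values were surrogates (-5.13, -4.60 and -3.93). Set against the lowest signal detected on each knockout array, its control mean was 3.21-fold higher. The fit on the measured values, surrogates included, gave an adjusted p of 0.124, and the fit with signals raised to that floor gave a log2 difference of -1.68 with an adjusted p of 0.409.

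The chromosomal passenger complex, which corrects faulty attachments and then marks the cleavage site, consists of the kinase Aurora B with Incenp, survivin and borealin. Birc5 encodes survivin, and its probe lies on chr11:117716978-117717037 of mm9. It gave the clearest difference among the genes detected on every array, with -0.16, -1.07 and -0.56 in the knockout and 1.29, 0.92 and 0.96 in the controls. No values overlapped, and the knockout mean was 3.15-fold lower (log2 difference -1.65 ± 0.28 SE, adjusted p 0.219). Its other probes gave log2 differences of -1.04, with overlap, and -2.09, without. Cdca8, the gene of borealin, behaved otherwise. It read -1.12, -1.38 and -0.46 in the knockout and -1.47, -0.39 and -0.75 in the controls, a log2 difference of -0.12 ± 0.36 (SE). With the slide row as a block, which leaves knockout 3 against the controls, this turned to 0.41. Incenp, the scaffold, was above background on all controls (-0.64, -1.84 and -1.02) and on no knockout array (-2.87, -2.59 and -1.73). Its highest knockout value passed its lowest control value. The log2 difference was -1.23 ± 0.40 (SE) with an adjusted p of 0.550, and -0.57 with the slide row as a block. Aurkb stood on the surrogate value on all 6 arrays, so the kinase of the complex was not measured here.

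Centromere and kinetochore genes were detected on all arrays in 4 of 6 cases, and none of the 4 separated the groups. Cenpa encodes the histone H3 variant that defines the centromere. It read -0.22, -0.54 and -1.44 in the knockout and -0.32, -0.23 and 0.94 in the controls, a log2 difference of -0.86 ± 0.43 (SE) with overlap, and -0.46 without control 3 or -0.51 without knockout 3. Cenpe, a kinetochore motor, gave the highest difference of the 22 genes, 0.49 ± 0.38 (SE), from knockout values of 0.79, -0.41 and 0.18 and control values of -0.07, -0.90 and 0.07. Cenpk, of the inner kinetochore, read -1.58, -1.56 and -0.52 in the knockout and -0.39, -1.57 and -0.66 in the controls. Its log2 difference was -0.35 ± 0.40 (SE), and 0.35 with the slide row as a block, that is, for knockout 3 against the controls. Ndc80 encodes the outer kinetochore protein that grips microtubules. It read -2.19, -1.45 and -0.84 in the knockout, a spread that enclosed the controls at -1.41, -1.49 and -1.35, and its log2 difference of -0.08 ± 0.34 (SE) turned to 0.57 with that block. Nuf2, the partner of Ndc80, and Cenpf were above background on no array. Nuf2 was lower on every knockout array by its brightest probe (-4.62, -4.72 and -4.07 against -2.69, -3.09 and -2.91), but its other probes gave 0.64 and 0.11.

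Of the 6 spindle motors only Kif11 was tested. It encodes Eg5, the kinesin that pushes spindle poles apart, and its probe lies on chr19:37495755-37495814 of mm9. Knockouts 1 and 2 stood on surrogate values of -5.29 and -4.80, whereas knockout 3 was detected at -1.50, inside the control range of -1.70, -0.13 and -0.42. The mean log2 difference of -3.11 ± 0.94 (SE) thus joins unlike arrays, and the adjusted p was 0.495. Among the arrays of slide row 2 the difference was -0.75, and without knockout 3 it was -4.29. The remaining motors were detected on few arrays: Kif2c on knockout 3 and control 1, Kif22 on knockout 3 and control 3, Kif4 and Kif15 on control 3, and Kif18a on none. Kif4, the chromokinesin that helps shape the spindle midzone, read lower on all knockout arrays (-3.68, -3.25 and -4.13) than on the controls (-2.98, -2.76 and -1.59). Kif22 and Kif2c read highest in the knockout on knockout 3, at -1.44 and -1.58, as Kif11 did.

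Among the proteins that organise spindle microtubules, Tpx2 and Nusap1 separated the groups, whereas Hmmr and Ckap2 did not. Tpx2 activates Aurora A and nucleates microtubules near chromosomes, and its probe lies on chr2:152719476-152719535 of mm9. It read -2.67, -2.70 and -3.94 in the knockout, above background on knockout 1 alone, and -1.33, -0.10 and -0.66 in the controls, a log2 difference of -2.41 ± 0.44 (SE) with an adjusted p of 0.254. Nusap1 bundles microtubules around chromosomes, and its probe lies on chr2:119475072-119475131 of mm9. It was above background on all controls, at a tight -0.97, -0.57 and -0.80, and on no knockout array (-3.62, -4.16 and -2.84). Set against the lowest signal detected on each knockout array, the control mean was 3.58-fold higher. The adjusted p was 0.136 on the measured values and 0.224 with dim signals raised to the lowest detected one. Hmmr, a spindle pole protein that also serves as a hyaluronan receptor, was level on all arrays. It read 2.98, 2.72 and 2.72 in the knockout and 2.71, 2.98 and 2.83 in the controls, a log2 difference of -0.03 ± 0.21 (SE). Ckap2, a microtubule stabiliser, gave 0.48 ± 0.50 (SE), from knockout values of -1.19, -0.41 and -1.09 and control values of -2.50, -1.12 and -0.50. Spag5 encodes astrin, which keeps spindle poles focused. It was above background on controls 2 and 3, where it read -1.47 and -2.05. Control 1 read -2.83, and the knockout arrays stood on surrogates of -5.32, -4.87 and -4.16.

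Midzone and cytokinesis genes held 3 of the 9 tested genes whose groups did not overlap. Prc1 cross-links the antiparallel microtubules of the midzone, and its probe lies on chr7:87461048-87461107 of mm9. It read -1.76, -1.38 and -3.39 in the knockout, with knockout 3 not above background, and 0.19, 0.44 and 0.94 in the controls. Even its highest knockout value lay far below its lowest control value, and the log2 difference was -2.70 ± 0.51 (SE) with an adjusted p of 0.261. Ect2 is the exchange factor that activates RhoA at the equator, and its probe lies on chr3:26996278-26996337 of mm9. It was above background on all arrays, with -0.44, -0.61 and -0.87 in the knockout and 0.16, 0.91 and 1.04 in the controls. The knockout mean was 2.53-fold lower (log2 difference -1.34 ± 0.29 SE, adjusted p 0.333), without overlap. Racgap1, the centralspindlin subunit that binds Ect2, read -0.996, -0.72 and -0.60 in the knockout, inside the control values of -1.35, -0.30 and 0.00. Its log2 difference was -0.22 ± 0.36 (SE).

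Kif20a, the kinesin that carries the passenger complex to the midzone, read -1.78, -2.19 and -2.36 in the knockout and -1.67, -1.62 and -0.77 in the controls. Knockout 3 was not above background. The groups were adjacent without overlap, and the log2 difference was -0.76 ± 0.31 (SE) with an adjusted p of 0.667, or -0.47 without control 3. Kif23, the motor subunit of centralspindlin, was above background on knockout 1 alone, and its values overlapped. Anln encodes anillin, the scaffold of the contractile ring. It was above background on control 3 alone, at -2.37, and overlapped between groups.

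**Figure D4:**
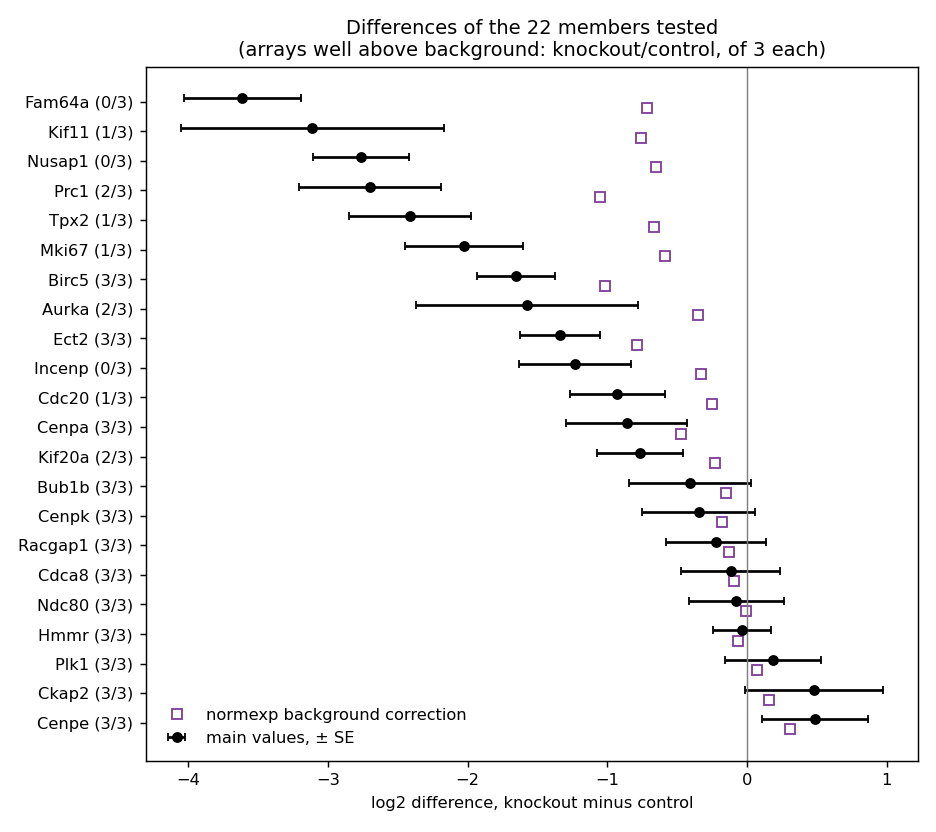
Log2 difference, knockout minus control, for the 22 tested genes: black points with bars give the difference ± SE of limma's fit, and open squares give the difference after normexp background correction; numbers beside each name are the knockout and control arrays (of 3) on which it was well above background. Differences are smaller under normexp in the genes at the top: Fam64a, detected on no knockout array, goes from -3.61 to -0.72, and Birc5, detected on all, from -1.65 to -1.02.

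The 15 genes that were not tested include 7 detected on no array: Bub1, Ttk, Melk, Aurkb, Cenpf, Nuf2 and Kif18a. Of the other 8, 7 were detected on a control array and 3 on a knockout array. Over the 15, means were lower in the knockout in 13 and higher in 2, while 42% of all names, tested or not, had a lower mean. In 5 (Top2a, Spag5, Nuf2, Bub1 and Kif4) every knockout array was below every control array, against 4% of all names. All knockout values of Spag5 and Bub1 were surrogates. Bub1, the checkpoint kinase at the kinetochore, was spotted 10 times per array. It was detected at 0 spots on each knockout array and at 0, 2 and 1 spots on the controls, with means of -5.13, -4.63 and -4.09 against -3.47, -3.40 and -3.29. Ttk encodes the checkpoint kinase Mps1. It overlapped, from -5.17 to -3.95 in the knockout and from -4.34 to -3.75 in the controls. Melk and Aurkb held surrogate values throughout and gave no measurement.

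**Figure D5:**
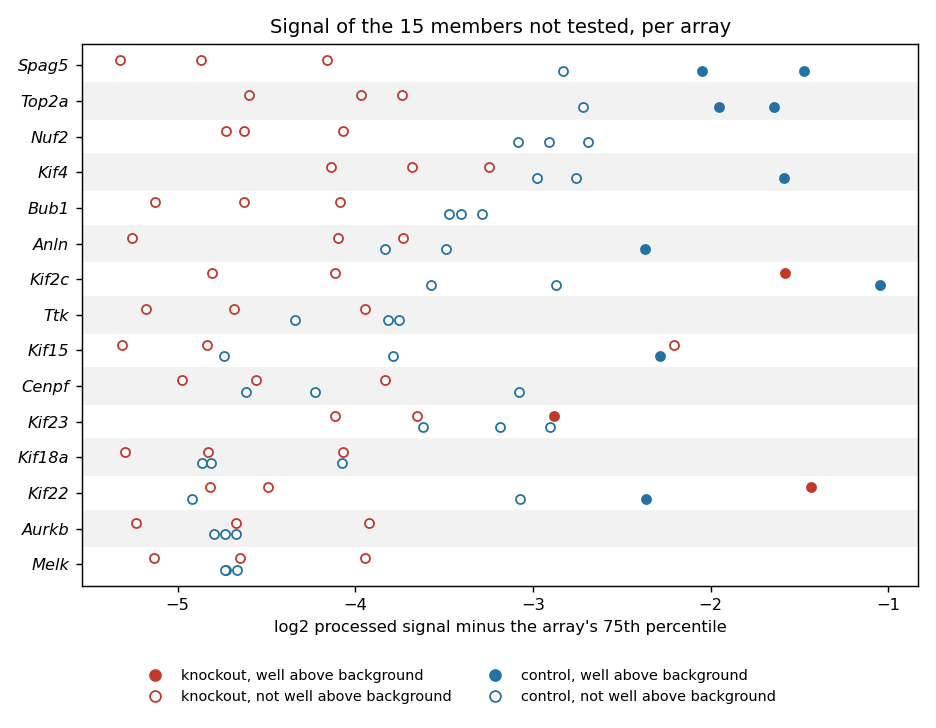
Log2 signal relative to the 75th percentile of the array (x axis) for the 15 genes that were not tested, with knockout arrays in red above and control arrays in blue below each line; filled points were well above background and open points were not. Most points are open, and in Spag5, Top2a, Nuf2, Kif4 and Bub1 all red points lie left of all blue points.

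Other genes of mitosis, in lists of 123 genes by role, were split in direction. Of these, 70 were tested, with 42 means lower and 28 higher and a median log2 difference of -0.13. Of all features tested, 43.7% had a lower mean. The adjusted test called 0. At an unadjusted p under 0.05, 13 were lower and 2 higher, against 4.21% and 2.83% of all features. The higher count is at the share of all features. Among the 13, Ncapg2, Smc4, Ncapd2, Spc25, Ccna2 and Cdca2 passed the filter through the controls alone. Neither lower count, the 42 or the 13, can thus be read as an excess over all features. Condensins and cohesion factors, which compact chromosomes and hold sisters together, held 6 of the 13 that were lower among 12 tested, with a median of -0.82. The 6 were condensin subunits: Ncapg2 (-1.37), Smc2 (-0.97), Ncaph2 (-0.77), Smc4 (-1.05), Ncapd2 (-1.32) and Ncapd3 (-1.24), the last 3 named after their values were seen. Ncapg2 was above background on 1 knockout array, and Smc4 and Ncapd2 on 2. Without knockout 3, Smc4 gave -0.66 and Ncapd3 -0.75. Over the mean of the probes that passed, Ncapd3 gave -0.64 and Ncaph2 -0.56. The other condensin subunits, Ncapg and Ncaph, were above background on no array, with log2 differences of 0.21 and 0.05.

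Zwint, which links the outer kinetochore to the checkpoint corona, went the other way. It read 5.998, 6.32 and 5.74 in the knockout and 5.04, 4.96 and 4.82 in the controls, above background throughout. The groups did not overlap, with a log2 difference of 1.08 ± 0.23 (SE) and an adjusted p of 0.333. Its list of checkpoint genes had a median of 0.09 over 5 tested, and Bub3 and Mad2l1bp gave -0.13 and 0.09. In the kinetochore list 2 of 14 were lower at an unadjusted p under 0.05, Spc25 (-1.46), a partner of Ndc80 and Nuf2, and Ska3 (-0.81), while Dsn1 gave 0.81 with overlap (0.45 without knockout 1). Among 15 tested spindle assembly genes the minus-end motor Kifc1 was lower (-1.57) and the augmin subunit Haus4 higher (0.55) at that threshold, and Bora, an activator of Aurora A, gave -1.09 (-0.43 without knockout 1). Of 6 cytokinesis genes none passed it: Arhgap11a gave -1.19 (-0.41 without control 3), Rhoa 0.29 and Mitd1 -0.24. The mitotic entry list had a median of -0.01 over 18 tested, with 4 lower at that threshold. They include Ube2c (-1.56), the conjugating enzyme of the anaphase-promoting complex, the cyclin Ccna2 (-2.06) and Cdca2. Cdca2 was not above background on any knockout array. Set against the lowest signal detected there, or its own signal where higher, its control mean was 1.16-fold higher.

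Markers of blood cells differed between arrays. Of 8 neutrophil markers, 8, 7 and 2 were well above background on the knockout arrays and 7, 5 and 5 on the controls, and of 9 red blood cell markers 6, 5 and 3 against 5, 2 and 2, with 3 on no array. The summed linear level of the neutrophil markers, in units of the array's 75th percentile, was 11.1, 17.3 and 1.46 on the knockout arrays and 3.57, 2.04 and 1.601 on the controls, and that of the red blood cell markers was 12.2, 9.80 and 6.32 against 4.89, 4.54 and 2.20. The sum of 14 satellite cell markers was 241.3, 228.4 and 205 against 241.9, 333.9 and 292.5. The sum of the 8 fibro-adipogenic markers was 526.8, 569.3 and 527.1 against 626.7, 686.2 and 983.4. Such sums are carried by the brightest markers. On the centred mean of log2 levels, which weights markers equally, satellite cell markers gave -0.01, -0.05 and -0.41 on the knockout arrays and -0.16, 0.37 and 0.27 on the controls, and fibro-adipogenic markers 0.13, 0.12 and -0.41 against 0.27, -0.24 and 0.13, so both overlapped. Red blood cell markers gave 0.80, 0.56 and 0.16 against 0.04, -0.65 and -0.90, higher on each knockout array by both measures. Their part in the lower mitotic signal was not tested. The 22 tested genes, centred per gene, averaged -0.53, -0.78 and -0.39 on the knockout arrays and 0.35, 0.61 and 0.74 on the controls, and their medians were -0.39, -0.60 and -0.12 against 0.33, 0.37 and 0.70.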

How the data were processed

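Satellite cells were sorted from 3 knockout and 3 control mice. Total RNA (TRIzol) was amplified and hybridised to 1-colour Agilent arrays, 1 per mouse, per the labels' protocols. Each deposited scanner file holds linear intensity values. The processed signal was background-corrected by the authors with Agilent Feature Extraction 10.7.1.1, per the file headers (9.5.1.1 per the submitters' processing notes), and is not normalized between arrays. A deposited table of values also holds linear intensity, quantile normalized by the authors, and served as an alternative. The number of arrays limits the precision.

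Each value was scaled by the 75th percentile of its array and taken to log2. Control spots and outlier flags were left out, spots of 1 probe were averaged, and no probe of the genes was saturated (0 saturated spots per array). Gene names come from the files, which place probes on mm9, and 27235 of 55681 probes matched a current symbol of GRCm38.p6. Where in its transcript a probe lies was not determined. The comparison used limma 3.58.1 with lmFit and eBayes (R 4.3.3, the data.table package, version 1.17.8), 2-sided, with Benjamini-Hochberg adjustment over all 19196 features. An exact permutation test of 3 against 3 cannot go below 0.1, which 9 of the 22 tested genes reached. Where no array of 1 group rose above background, a fold is set from the brighter mean against a reference on each dim array. The reference is the lowest detected signal or the probe's signal, whichever was higher. It is not a strict limit: Incenp was not detected on knockout 1 at -2.87, above the lowest detected signal of -3.10. The normexp alternative used an offset of 50. Promoter matches were counted with Python.

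The genes and lists were chosen with earlier results of these data known. Values of each sample are given for every tested gene, and from each further list the differences of the 3 tested genes with the smallest unadjusted p, with condensin subunits added after their values were seen. Of the marker lists, those not described were myofibres (summed level 7.8 to 18.6 in the knockout, 12.2 to 14 in the controls), endothelial cells (28.8 to 76.2, 28.3 to 99.6), smooth muscle and pericytes (98 to 119.4, 97.7 to 102.4), macrophages (28.9 to 30, 25.2 to 33.8), lymphocytes (35.4 to 59.5, 36.2 to 43.2) and Schwann cells (5.85 to 13.3, 7.29 to 11.1).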

Additional observations from a re-analysis of the deposited data

How the results depend on the processing

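The median log2 difference of the 22 tested genes (-0.89) was -0.58 with slide row as a block and -0.29 with normexp. Over the 12 genes detected on all 6 arrays it was -0.17. In slide row 2 alone, where the filter passed 24 of the genes, it was -0.50. Both row settings compare knockout 3 with the controls, so they are 1 check. With 1 array left out the median ran from -1.05 to -0.70, over the 22 or 24 genes that passed. With array weights 2 of the 22 genes passed an adjusted p of 0.05, Nusap1 (0.0259) and Fam64a (0.0347), among 9 of 19196 features that did. Neither gene was above background on any knockout array, and the knockout values of Fam64a were all surrogates. Under the other alternatives 0 of the genes passed. The count lower at an unadjusted p under 0.05 (11) was 7 in slide row 2, which leaves 1 knockout array, and 2 over genes detected on all arrays. The count without overlap (9, against 5.61%) was 2 there, against 4.55%, and 14 of 37 with no filter, against 4%. The cause was not tested.

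Of 993 values of single genes over 23 alternatives, 972 kept direction and call and 19 reversed, none of them past the threshold in either setting. In slide row 2, and so with slide row as a block, Cdca8 gave 0.41, Cenpk 0.35 and Ndc80 0.57. With array weights Mitd1 gave 0.049. With 1 array left out the ranges were -0.29 to 0.036 for Bub3, -0.42 to 0.12 for Cdca8, -0.082 to 0.92 for Ckap2, -0.12 to 0.035 for Hmmr, -0.49 to 0.16 for Mitd1, -0.40 to 0.27 for Ndc80, -0.16 to 0.36 for Plk1 and -0.62 to 0.054 for Racgap1. Correlations of knockout with control arrays were 0.07, -0.02 and 0.09 for equal replicate numbers. For unequal numbers they ran from -0.09 to 0.04. The main fit did not pair the arrays. The replicate block left 10 of 22 genes lower at an unadjusted p under 0.05, against 4.37% of all features. It called 0 and gave a median of -0.89. Dim signals limit the genes: 15 of 37 could not be tested.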
